A study of Mus musculus with 4 samples.

Results

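The olfactory receptor genes Olfr828 to Olfr986 are a run of odorant receptor genes on mouse chromosome 9. A gene was taken as a member when its symbol was Olfr followed by a number in that range and a probe set of the array was paired with that gene and no other. This gave 106 genes of the 19938 genes with such a probe set, and each of the 106 had 1 probe set. The array measured 1015 Olfr genes in all, so 909 lay outside the range. The range holds 159 possible numbers, RefSeq lists 111 genes in it, and the 5 listed genes without a probe set of their own were not analysed here. All 106 members were matched to RefSeq by gene identifier.

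Total RNA came from the mucosa lifted off the nasal septum and turbinates of mice aged 8 weeks, and 4 groups had 1 Affymetrix array each. The groups were Duox2-/- mice given flagellin, Duox2-/- mice given PBS, wild-type (Duox2+/+) mice given flagellin and wild-type mice given PBS, and the labels give the strain of all 4 as C56BL/6. The solution, 25 ul per nostril with flagellin at 5 ug/ml in the flagellin groups, had acted for 4 h. Flagellin is the protein of bacterial flagella, and Duox2 is an oxidase of epithelial surfaces that makes hydrogen peroxide. The sources used here do not say whether an array holds 1 mouse or a pool, or how the Duox2 allele was made. The probe set of Duox2 read 5.50 and 5.23 in the flagellin and PBS arrays labelled Duox2-/-, and 5.12 and 4.95 in the flagellin and PBS arrays labelled wild type, so it was not lower where the label says knockout. It is not known whether this probe set covers the altered sequence, and every genotype difference below rests on the labels alone.

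Odorant receptors are G protein-coupled receptors of the olfactory sensory neurons. Each mature neuron is known to express 1 allele of 1 receptor gene, so the RNA of a single receptor comes from a small part of the neurons. The receptor signals through the G protein subunit Gnal, the adenylyl cyclase Adcy3 and the cyclic nucleotide-gated channel Cnga2, and the chaperones Rtp1 and Rtp2 bring it to the cell surface. Receptor genes lie in clusters, and names of the form MOR group them into families by protein sequence.

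The defining genes of mature olfactory neurons were bright on every array. Omp, the olfactory marker protein, read 12.16 and 11.85 in the flagellin and PBS arrays labelled Duox2-/-, against 11.99 and 11.94 in the flagellin and PBS arrays labelled wild type. The tissue thus held RNA of olfactory epithelium on all 4 arrays. All values are RMA signals on the log2 scale, where a difference of 1 is 2-fold. The median of all deposited values, 6.52, stands here for signal over background, because the table gives no background per probe set.

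Promoter windows are shown for 3 members whose differences are described below and whose RefSeq gene model (GRCm38.p6) begins ahead of the start codon: Olfr943, with the largest genotype shift among the 35 members bright enough for the main test, and Olfr860 and Olfr910, both more than 2-fold higher after flagellin in wild type. They were chosen after their values and their motif matches were seen. Each window holds the 250 bases before the model's start, 5′ to 3′ on the gene's strand, at chr9:39166060-39166309 on the plus strand for Olfr943, chr9:19849748-19849997 on the minus strand for Olfr860 and chr9:38537632-38537881 on the plus strand for Olfr910. Capitals mark matches to TATAAA, the core of a TATA box, or to TAATTA, a core bound by homeodomain proteins such as Lhx2 and Emx2, which take part in receptor gene choice; both strands were searched.
Olfr943: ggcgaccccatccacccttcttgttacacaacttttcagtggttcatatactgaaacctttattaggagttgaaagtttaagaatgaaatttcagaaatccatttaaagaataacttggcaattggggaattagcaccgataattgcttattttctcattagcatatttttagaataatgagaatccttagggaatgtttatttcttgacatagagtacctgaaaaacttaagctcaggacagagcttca
Olfr860: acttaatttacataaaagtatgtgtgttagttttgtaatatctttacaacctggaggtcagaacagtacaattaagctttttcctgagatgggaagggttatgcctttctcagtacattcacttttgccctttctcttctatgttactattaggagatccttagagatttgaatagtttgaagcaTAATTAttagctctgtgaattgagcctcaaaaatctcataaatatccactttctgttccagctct
Olfr910: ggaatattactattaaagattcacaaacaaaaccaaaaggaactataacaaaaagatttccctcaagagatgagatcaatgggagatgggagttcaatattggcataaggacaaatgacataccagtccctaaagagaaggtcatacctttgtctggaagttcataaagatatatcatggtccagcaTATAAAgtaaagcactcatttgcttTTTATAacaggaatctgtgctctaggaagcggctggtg
Olfr860 held 1 TAATTA, 65 bases before the start. Olfr910 held TATAAA on the forward strand 63 bases before the start and on the reverse strand 38 bases before it. The window of Olfr943 held neither. A match is a description of letters and no evidence of a site.

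Of the members, 92 had a RefSeq window and 14 did not. Among their 93 windows, 61 belonged to models that begin at the start codon, where the window precedes the coding sequence and not a known start of transcription. TATAAA stood in 12 of the other 32 windows (37.5%) and TAATTA in 8 (25%). In the same kind of window of the other Olfr genes the shares were 30.8% and 16.7% of 227, and over all 30936 windows of the genome's genes that do not begin at a start codon they were 11.4% and 4.43%. CCCNNGGG, a core bound by Ebf proteins, stood in 1 of the 32 windows of members, in 7.93% of those of other Olfr genes and in 12.2% of all. TATAAA and TAATTA overlapped in none of the printed windows. Base composition differed in step with these shares: the median GC content was 34.4% in the members' windows, 36.8% in those of other Olfr genes and 52.8% over all, and its part in the shares was not tested.

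The members fell into 2 gene clusters. Cluster 1 held 30 genes, Olfr828 to Olfr873, at chr9:18815354-20301170, and cluster 2 held 76 genes, Olfr874 to Olfr986, at chr9:37745300-40188094. The RefSeq names place the 106 genes in 27 MOR families, and each family lay in 1 of the clusters. MOR171 is the largest, with 25 genes of cluster 2. For 80 of the 106 genes the length of the gene model was a multiple of 3, as for models that hold a coding sequence without untranslated regions.

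Receptor signals were low. Of the 106 members, 35 (33.0%) reached the median of all values on an array and 71 did not, where 41.5% of the other Olfr genes and 62.5% of all genes reached it. Of the members, 6 reached the 75th percentile, 7.80. In cluster 1 the median was reached by 3 of 30 genes (10%) and in cluster 2 by 32 of 76 (42.1%). Probe sets differ in how well they bind, so these signals do not rank the receptors by RNA level. Per array, the members' median was 5.93 with flagellin and 5.98 with PBS in the arrays labelled Duox2-/-, against 5.69 with flagellin and 5.33 with PBS in wild type. The wild-type PBS array was thus the lowest of the 4. On it 59 of the 106 members (55.7%) had their lowest value, 25 of 30 in cluster 1 and 34 of 76 in cluster 2. So did 574 of the 909 other Olfr genes (63.1%) and 29.1% of all genes. In bulk tissue, fewer cells that express a receptor and less RNA per cell cannot be told apart.

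**Figure D1:**
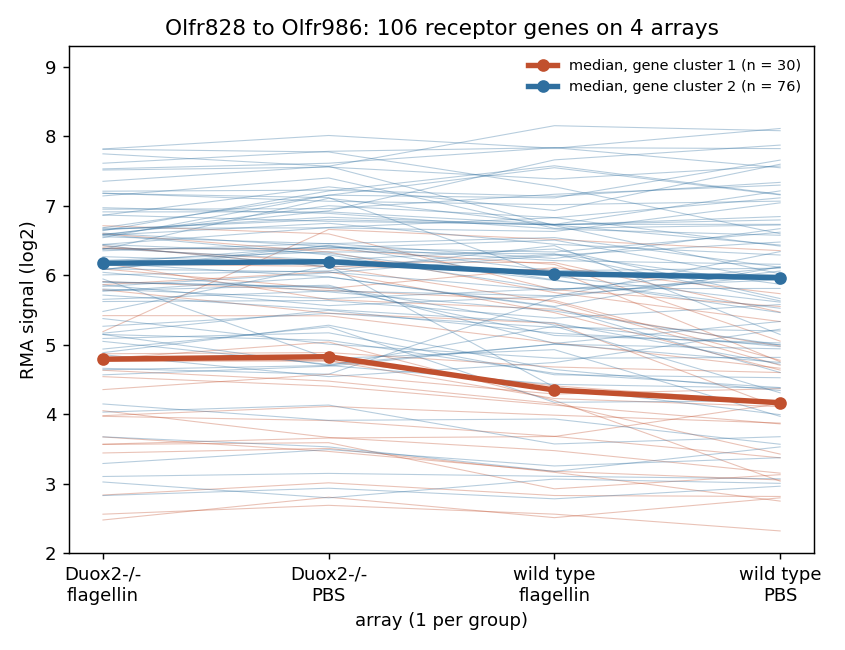
RMA signal (log2, vertical axis) of the 106 members on the 4 arrays, 1 array per group (horizontal axis). Thin lines are genes and thick lines with points are the medians of gene cluster 1 (30 genes) and gene cluster 2 (76 genes). Both medians are lowest on the wild-type PBS array.

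Of the 8 members with the highest mean signal, Olfr972 and Olfr881, described below, spanned 1.22 and 1.28 between arrays, and the other 6 spanned less. Olfr969 read 7.82 and 8.01 with flagellin and PBS in the arrays labelled Duox2-/-, against 7.83 and 8.11 with flagellin and PBS in wild type. Olfr878, the only member of family MOR163, read 7.75 and 7.57 in the arrays labelled Duox2-/-, against 8.15 and 8.08 in wild type, in the same order of treatments. The span over the 4 arrays was 0.29 in Olfr969 and 0.58 in Olfr878, and 0.31, 0.29, 0.19 and 0.20 in Olfr957, Olfr874, Olfr959 and Olfr982. Over all members the span from the lowest to the highest array had a median of 0.63. The least was 0.08, in Olfr926, whose 4 values of 3.07 to 3.15 lie far under the median of all values. The greatest was 2.15, in Olfr948. The span was under 0.5 in 41 members and at least 1 in 24.

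Genotype was compared within each treatment, to see whether receptor signals differed in Duox2-/- mice before and after flagellin. Under PBS, 74 of 106 members were higher in the array labelled Duox2-/- than in wild type, with a median difference of 0.34, or 0.23 and 0.22 after quantile and cyclic loess normalisation. Over the 909 other Olfr genes the median was 0.40 and 694 were higher, and over all genes it was 0.04 with 56.3% higher. After flagellin 73 of 106 members were higher in the array labelled Duox2-/-, with a median of 0.16, which turned to -0.00 under cyclic loess. The other Olfr genes had a median of 0.31. Over all genes the median was 0.01, and 50.6% were higher. Ranked by mean signal, the 36 lowest members had a PBS median of 0.38, the 35 middle ones 0.72 and the 35 highest -0.00. Under PBS the 81 members with a mean under the median of all values had a median difference of 0.46, and the 25 brighter ones -0.01. Over the 8566 genes with a mean under that limit the median difference was 0.21, and 78.9% were higher, against 65 of the 81 members (80.2%). After flagellin the 81 members had a median of 0.23 with 63 higher (77.8%), against 0.29 and 78.2% over the 8566 genes. Across the 106 members, Pearson's r between mean signal and the PBS difference was -0.14, as a description, with both taken from the same arrays.

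Dim genes in general read higher in the arrays labelled Duox2-/-. In steps of signal, the median PBS genotype difference over all genes was 0.13 to 0.27 for mean signals from 2.5 to 6, and lay between -0.03 and -0.08 from 7 upward. The interquartile range of all probe sets was 2.43 and 2.54 in the flagellin and PBS arrays labelled Duox2-/-, and 2.73 and 2.79 in the flagellin and PBS arrays of wild type. The part of this narrower spread in the receptor differences was not tested beyond the normalisations above.

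**Figure D2:**
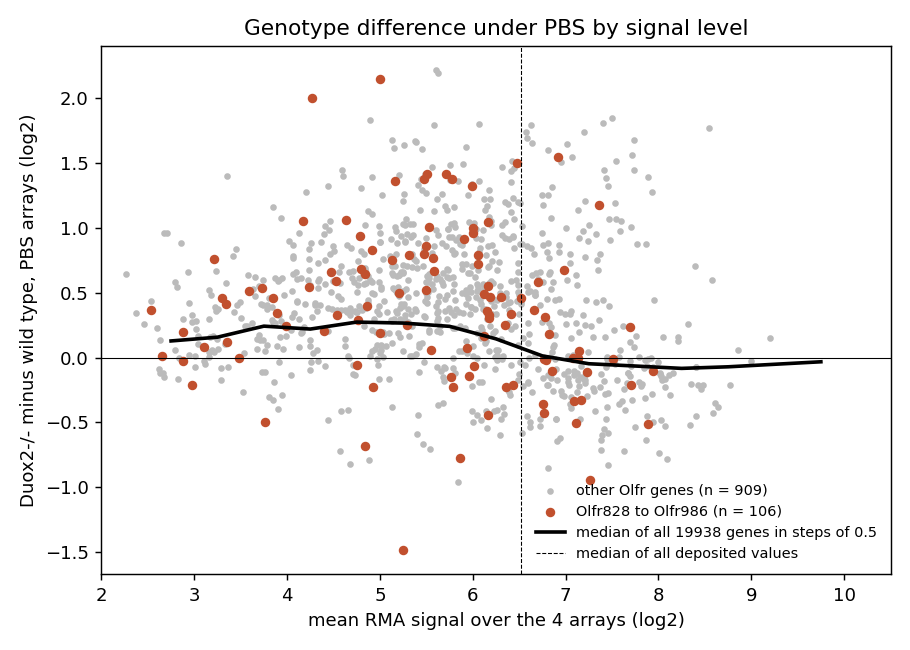
Difference under PBS, Duox2-/- minus wild type (log2, vertical axis), against the mean RMA signal over the 4 arrays (log2, horizontal axis), for the 106 members and the 909 other Olfr genes. The solid line is the median of all 19938 genes in steps of 0.5, the dashed line the median of all deposited values, 6.52; the members' points lie above 0 for 74 of 106 genes, and the line for all genes is above 0 on the left and below it on the right.

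At least 2-fold higher in the PBS array labelled Duox2-/- were 15 members (14.2%), and 1 was at least 2-fold lower. Over all genes the shares were 1.34% and 0.226%. Of the 909 other Olfr genes 120 (13.2%) were higher and 0 lower, so the members were close to other receptors. After flagellin 3 members were higher and 3 lower, against 0.476% and 1.18% of all genes and 3.74% and 0.11% of the other Olfr genes. The 3 higher became 1 after quantile normalisation and 1 after cyclic loess. Under PBS the 15 higher became 11 after quantile normalisation, 11 after cyclic loess and 11 when each array was centred on its median. The 1 lower under PBS became 2 with that centring. With 1 array per group these counts have no replicate check and no p-value, and members are no replicates of a condition. Cluster 1 supplied 9 of the 15 and cluster 2 the other 6. In cluster 1 the median PBS difference was 0.62, and 29 of 30 genes were above 0. In cluster 2 it was 0.21, with 45 of 76 above 0. Only 3 members of cluster 1 reached the median of all values, so its differences are almost all between dim signals.

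Olfr943, of family MOR171, lies at chr9:39166310-39185124, and its window is printed above. It read 7.18 and 7.12 with flagellin and PBS in the arrays labelled Duox2-/-, against 5.99 and 5.61 with flagellin and PBS in wild type. Both arrays labelled Duox2-/- were above both wild-type arrays, by 2.28-fold after flagellin and 2.84-fold under PBS. Olfr948, another MOR171 gene, chosen after its values were seen, read 5.48 and 6.14 against 4.39 and 3.99 in the same order of arrays. It too was at least 2-fold higher in both treatments, and its PBS difference of 2.15 was the greatest of all members, but no array reached the median of all values. Olfr943 and Olfr948 were the only members past 2-fold upward in both treatments.

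Several more of the 15 members were lowest in the wild-type PBS array. Olfr855, the only MOR148 gene, read 6.42 and 6.12 with flagellin and PBS in the arrays labelled Duox2-/-, against 5.61 and 4.70 in wild type. Olfr849, the only MOR151 gene, read 5.86 and 6.05, against 5.46 and 4.64 in the same order. Olfr907, of MOR165, read 5.77 and 5.97, against 5.54 and 4.60. In each of these 3 genes the wild-type flagellin array lay closer to both arrays labelled Duox2-/- than to the wild-type PBS array. Olfr945, of MOR171, differed in form, with 4.94 and 5.26 in the arrays labelled Duox2-/- and 4.17 and 4.19 in wild type, so both wild-type arrays were low. All 4 genes were chosen after their values were seen, and none reached the median of all values. The rest of the 15 were Olfr835, Olfr843 and Olfr869 of cluster 1, with PBS differences of 1.32, 1.01 and 1.05, and genes described elsewhere here.

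Olfr881, of MOR162, ran the other way, with 6.59 and 6.93 in the flagellin and PBS arrays labelled Duox2-/-, against 7.66 and 7.87 in wild type. Olfr924, a MOR171 gene chosen after its values were seen, read 4.66 and 4.58 in the arrays labelled Duox2-/-, against 5.68 and 6.06 in wild type, in the same order. In both genes the arrays labelled Duox2-/- lay below both wild-type arrays, and Olfr924 alone was at least 2-fold lower in both treatments. A probe set paired with 8 receptor genes, Olfr881 among them, was left out of the members; it read 7.88 and 7.77 in the arrays labelled Duox2-/-, and 7.74 and 7.57 in wild type. It did not share the direction of Olfr881, and receptors with shared sequence are uncertain for this reason.

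**Figure D3:**
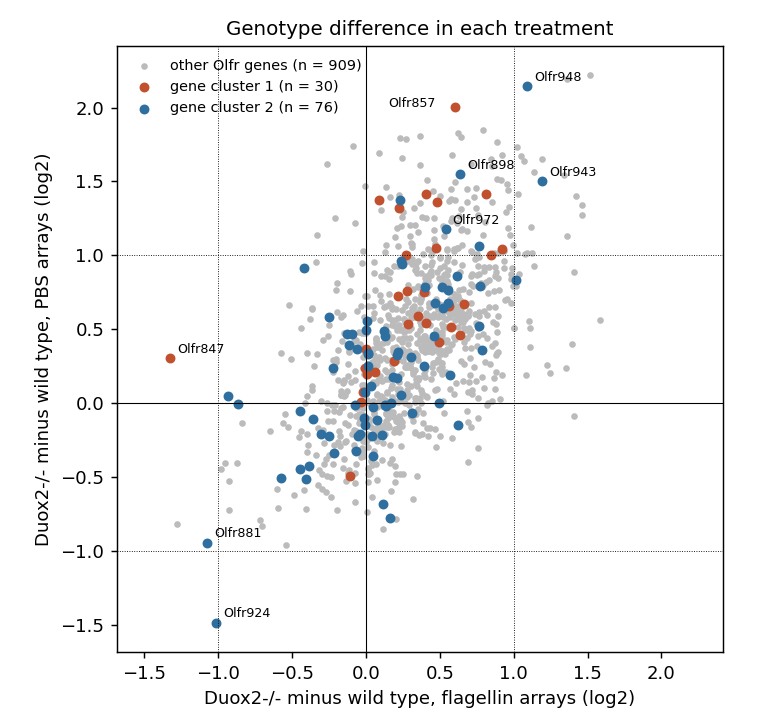
Difference Duox2-/- minus wild type (log2) in the flagellin arrays (horizontal axis) and in the PBS arrays (vertical axis), for the members of gene clusters 1 and 2 and for the other Olfr genes. Dotted lines mark 2-fold; Olfr943 and Olfr948 lie past it upward on both axes and Olfr924 downward on both.

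The genotype differences of the flagellin arrays and of the PBS arrays share no array. Across the 106 members they had a Pearson's r of 0.64 and a Spearman's rho of 0.66; 60 members were above 0 in both, 19 below 0 in both and 26 of opposite sign. The same r was 0.54 over the other Olfr genes and 0.56 over all genes. Genes are not independent replicates, and all 4 arrays carry the genotype gap in signal spread described above.

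An additive model of treatment and genotype was fitted to all 4 arrays with limma, with Benjamini-Hochberg adjustment over all 12471 genes that reached the median of all values on an array. It tests the shift common to both treatments against the interaction, with 1 residual degree of freedom, so it cannot test whether responses differ. Its pairs of arrays per genotype are not replicates of 1 group. Of the 35 members tested, 5 rose in the arrays labelled Duox2-/- and 1 fell, where 2.39% and 1.98% of the genes tested did; of the 377 other Olfr genes tested 99 rose and 3 fell. Olfr943, Olfr859 and Olfr867 passed the signal limit only through the arrays labelled Duox2-/-, so their share of the count carries no weight of its own. After cyclic loess 0 members and 1 gene in all passed, the lowest adjusted p of a member being 0.0768, while 11 of 34 members tested had an unadjusted p under 0.05.

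Olfr943 rose by 1.35 (SE 0.14, adjusted p = 0.0063 in limma). Olfr898, of MOR170, read 7.35 and 7.57 with flagellin and PBS in the arrays labelled Duox2-/-, against 6.72 and 6.02 in wild type, a rise of 1.09 (SE 0.20, adjusted p = 0.0309). Its wild-type PBS array was the lowest, 1.55 under the PBS array labelled Duox2-/-. Olfr972, of MOR171 and among the brightest members, read 7.81 and 7.77 in the arrays labelled Duox2-/-, against 7.27 and 6.60 in wild type, and rose by 0.86 (SE 0.17, adjusted p = 0.0354). In each of the 3 genes both arrays labelled Duox2-/- exceeded both wild-type arrays. Olfr943 passed the signal limit only through the arrays labelled Duox2-/-, so its adjusted p carries no weight of its own.

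From cluster 1, Olfr867, the only MOR143 gene, read 6.71 and 6.59 in the flagellin and PBS arrays labelled Duox2-/-, against 5.79 and 5.55 in wild type, and rose by 0.98 (SE 0.13, adjusted p = 0.0128). Olfr859, of MOR146, read 6.60 and 6.33, against 5.75 and 5.33 in the same order, and rose by 0.92 (SE 0.13, adjusted p = 0.0140). In both genes the arrays labelled Duox2-/- lay above both wild-type arrays. Olfr867 and Olfr859 passed the signal limit only through the arrays labelled Duox2-/-, so their adjusted p carries no weight of its own. Olfr881 fell by 1.01 (SE 0.13, adjusted p = 0.0118). Olfr937, of MOR171, had a difference of -0.54 that did not pass (adjusted p = 0.0534).

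When all 19938 genes were tested, dim ones included, 28 of the 106 members rose in the arrays labelled Duox2-/- and 3 fell. Over all genes 7.03% rose and 2.39% fell, and of the 909 other Olfr genes 291 rose and 13 fell. Most members are dim, and dim genes in general read higher in these arrays, so genes of like signal are the closer comparison. With a mean under the median of all values, 25 of 81 members rose and 1 fell, against 1174 and 112 of all 8566 such genes. Of the brighter ones, 3 of 25 members rose and 2 fell, against 228 and 365 of all 11372. The 28 were 12 of 30 genes in cluster 1 and 16 of 76 in cluster 2, with shifts of 0.54 to 1.62. The 3 that fell were Olfr924 (-1.25, adjusted p = 0.00579), Olfr881 (-1.01, adjusted p = 0.00797) and Olfr937 (-0.54, adjusted p = 0.0414), all in cluster 2.

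By family in that fit, all 4 genes of MOR146 rose: Olfr857 by 1.30, Olfr859 by 0.92, Olfr860 by 0.92 and Olfr862 by 0.61. Olfr857, whose values were seen before it was chosen, read 4.80 and 5.04 with flagellin and PBS in the arrays labelled Duox2-/-, against 4.20 and 3.04 in wild type, and Olfr862 read 4.79 and 4.77, against 4.23 and 4.11. The 4 genes are neighbours in cluster 1, and none but Olfr859 reached the median of all values. MOR171 was mixed, with 7 of 25 genes that rose and 2 that fell, and PBS differences from -1.49 to 2.15. Of the 8 genes of MOR165, 3 rose; of the 8 of MOR162, 2 rose and 1 fell; of the 8 of MOR224, 1 rose; and of the 5 of MOR223 none passed in either direction.

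**Figure D4:**
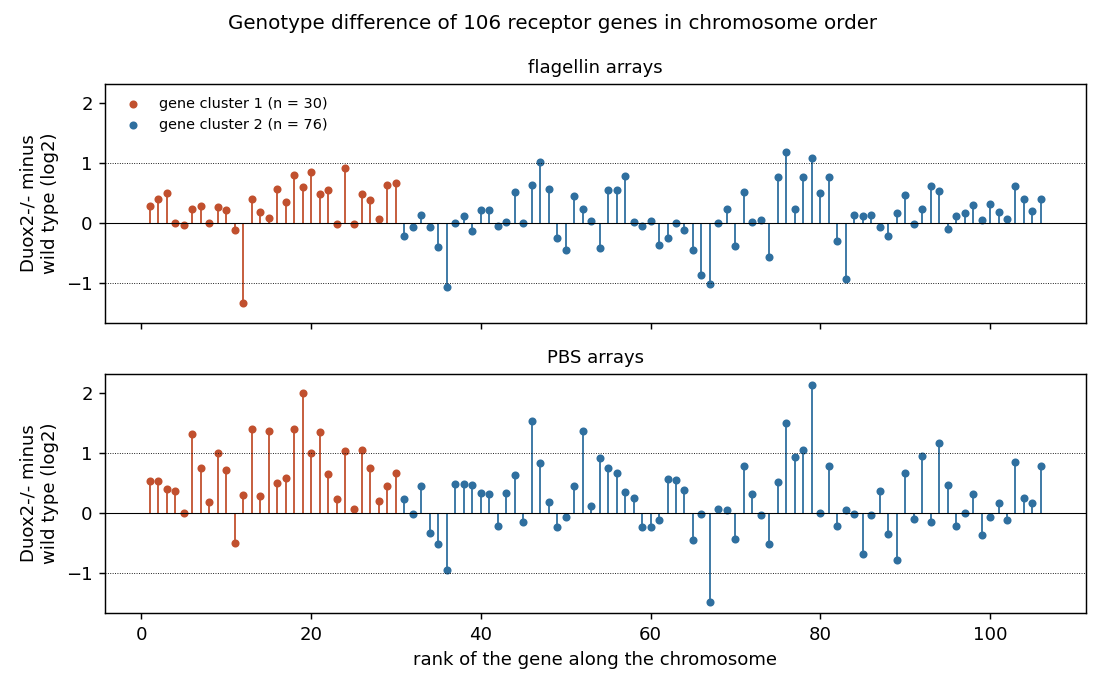
Difference Duox2-/- minus wild type (log2, vertical axes) for each of the 106 members in its order along chromosome 9 (horizontal axis), in the flagellin arrays above and the PBS arrays below. Cluster 1 occupies ranks 1 to 30; in the PBS arrays 29 of its 30 genes are above 0, while cluster 2 holds genes of both signs.

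Along the chromosome, Pearson's r between the genotype differences of neighbouring members was 0.33 after flagellin and 0.25 under PBS over 105 pairs, and 0.08 and 0.12 for the flagellin differences in the arrays labelled Duox2-/- and in wild type. Neighbours share sequence and signal range, so these values are a description. The genes at the edges of the range were taken by number alone, and the positions of those outside it were not examined. Just outside the number range, Olfr827 read 5.77 and 4.92 with flagellin and PBS in the arrays labelled Duox2-/-, against 4.74 and 3.91 in wild type. Olfr828, just inside, read 3.97 and 3.91 against 3.68 and 3.37. At the other end, Olfr986 inside the range read 5.71 and 5.51 against 5.32 and 4.72, and Olfr987 outside it read 7.11 and 6.96 against 6.71 and 6.79. All 4 genes at the edges were higher in both arrays labelled Duox2-/- than in the wild-type array of the same treatment, on either side of the limits.

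Flagellin was compared with PBS in each genotype, to see whether the receptors changed within 4 h of the bacterial protein. In the arrays labelled Duox2-/- 49 of 106 members were higher with flagellin and the median difference was -0.01, against 0.19 over the other Olfr genes and -0.01 over all genes. In wild type 67 of 106 were higher and the median was 0.11, against 0.26 over the other Olfr genes and 0.01 over all genes. Among the members that reached the median of all values the median was -0.10 in the arrays labelled Duox2-/- and -0.00 in wild type. For the 25 members with a mean at or above that limit it was -0.17 in the arrays labelled Duox2-/-, with 6 above 0. The 265 other Olfr genes with such a mean had 0.20 there, with 216 above 0. In wild type the medians of these 25 and 265 genes were -0.05 and 0.04.

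In the arrays labelled Duox2-/- 1 member was at least 2-fold higher with flagellin and 1 at least 2-fold lower. The shares there were 0.221% and 0.466% of all genes, and 2.75% and 0.44% of the other Olfr genes. In wild type 5 members (4.72%) were higher and 0 lower. The shares in wild type were 0.838% and 0.0552% of all genes, and 8.14% and 0.22% of the other Olfr genes. The 5 were Olfr851, Olfr910, Olfr860, Olfr857 and Olfr835, chosen after their values were seen, in falling order of difference, with 1.32, 1.28, 1.21 and 1.16 in the first 4, and none of them reached the median of all values. In each the wild-type PBS array was the lowest of the 4. Olfr851, of MOR155, shows the form: 6.16 and 6.13 with flagellin and PBS in the arrays labelled Duox2-/-, against 6.07 with flagellin and 4.76 with PBS in wild type. Olfr860 read 5.79 and 5.45 in the arrays labelled Duox2-/-, and 5.31 and 4.10 in wild type. Olfr910, of MOR165, read 6.00 and 6.06 in the arrays labelled Duox2-/-, and 6.43 and 5.15 in wild type. The 3 values beside the wild-type PBS array lay within 0.48 of each other in Olfr860 and closer in Olfr851. The wild-type flagellin and genotype differences of these genes share that 1 array and are not separate results.

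Olfr901, a MOR162 gene chosen after its values were seen, was the 1 member past 2-fold upward in the arrays labelled Duox2-/-. It read 5.95 with flagellin and 4.80 with PBS there, against 4.93 and 3.97 in wild type, so flagellin was above PBS in both genotypes, by 1.15 and 0.96. It was under the median of all values on every array. In the limma fit of all genes it was the only member that rose with flagellin (1.05, SE 0.14, adjusted p = 0.0162), where 0.261% of all genes rose and 0.0401% fell. Part of its sequence is shared with other receptors: probe sets paired with 7 and with 8 genes, Olfr901 among them, read 0.00 and 0.11 higher with flagellin in the arrays labelled Duox2-/-, and 0.11 and 0.16 higher in wild type.

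Olfr847, of MOR149 in cluster 1, was the 1 member past 2-fold downward. It read 5.19 with flagellin and 6.66 with PBS in the arrays labelled Duox2-/-, against 6.52 and 6.35 in wild type. The flagellin array labelled Duox2-/- was the single low value, and the other 3 lay within 0.31 of each other. It passed neither term of the limma fit (adjusted p = 0.806 for flagellin and 0.360 for genotype).

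In the limma fit of the 12471 brighter genes 0 of 35 members passed for flagellin in either direction, where 0.241% of genes rose and 0.0401% fell. The lowest adjusted p was 0.198, and 5 members had an unadjusted p under 0.05, beside 6.45% of all genes tested. Of the 5, Olfr918, Olfr937, Olfr877 and Olfr904, the last chosen after its values were seen, were lower with flagellin in both genotypes, and Olfr859 was higher in both. Olfr859 passed the signal limit only through the flagellin array labelled Duox2-/-, and Olfr904 only through the wild-type PBS array. Each is the array where that gene was highest, so their p-values carry no weight of their own. Olfr918, of MOR164, read 6.37 with flagellin and 7.11 with PBS in the arrays labelled Duox2-/-, against 6.73 and 7.21 in wild type. Olfr937 read 6.54 and 7.15, against 7.11 and 7.66. Olfr877, of MOR161, read 6.86 and 7.27, against 6.93 and 7.60.

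**Figure D5:**
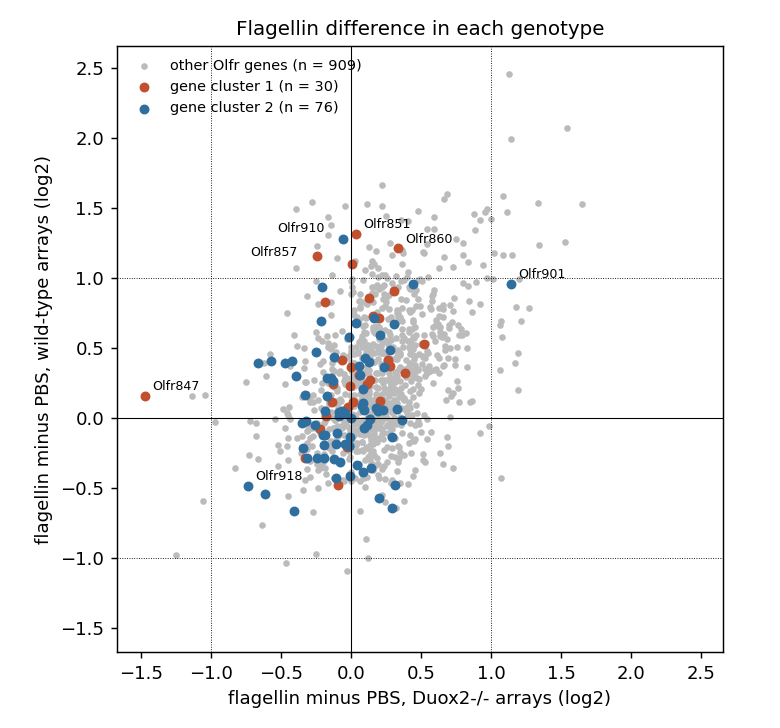
Difference flagellin minus PBS (log2) in the arrays labelled Duox2-/- (horizontal axis) and in wild type (vertical axis), for the members of gene clusters 1 and 2 and for the other Olfr genes. Dotted lines mark 2-fold; no member lies past it in both genotypes, Olfr847 stands alone at the left and Olfr901 at the right.

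The flagellin differences of the 2 genotypes share no array either. Across members they had a Pearson's r of 0.24 and a Spearman's rho of 0.24, with 37 members above 0 in both, 27 below in both and 42 of opposite sign. The same r was 0.42 over the other Olfr genes and 0.12 over all genes. No member was 2-fold higher or lower in both genotypes.

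The difference of the flagellin responses, Duox2-/- minus wild type, had a median of -0.13 over the members, -0.05 over the other Olfr genes and -0.02 over all genes. It was below 0 in most members, with 35 of 106 above 0. At a 2-fold size 0 members were higher and 8 (7.55%) lower, and 5 of the 8 lay in cluster 1. The shares were 0.211% and 1.38% of all genes, and 0.66% and 3.30% of the other Olfr genes. Of the 8, Olfr835, Olfr849, Olfr851, Olfr857, Olfr907 and Olfr910 were lowest in the wild-type PBS array, Olfr847 was lowest in the flagellin array labelled Duox2-/-, and Olfr948 was highest in the PBS array labelled Duox2-/- and lowest in wild-type PBS. At the other end, Olfr967, a MOR171 gene chosen after its values were seen, had 0.94, with 5.86 and 5.56 in the flagellin and PBS arrays labelled Duox2-/-, against 5.70 and 6.34 in wild type. Among members that reached the median of all values, the lowest after Olfr847 was Olfr958, of MOR224, with 6.64 and 7.21 in the flagellin and PBS arrays labelled Duox2-/-, against 7.58 and 7.16 in wild type. The interaction could not be tested with 1 array per group.

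Of the 15 measured genes of olfactory transduction 14 reached the median of all values. The exception was Cnga1, a channel subunit known from rod photoreceptors, which read 2.75 to 3.28. Of the 15 genes, none was 2-fold higher or lower with flagellin in the arrays labelled Duox2-/-. Their median flagellin difference was 0.32 there (14 of 15 above 0), against 0.11 in wild type (12 of 15). Gnal read 10.75 and 10.52 with flagellin and PBS in the arrays labelled Duox2-/-, against 10.65 and 10.60 in wild type. The 17 genes of receptor trafficking and choice had a median of 0.22 with flagellin in the arrays labelled Duox2-/- and 0.08 in wild type. Rtp1 read 9.89 and 9.57 in the arrays labelled Duox2-/-, against 9.65 and 9.48 in wild type, and Rtp2 read 9.74 and 9.37, against 9.48 and 9.46. Most members were higher in the arrays labelled Duox2-/- in both treatments, and the neuron genes were so after flagellin. The median genotype difference of the 14 mature neuron markers was 0.18 after flagellin with 12 above 0, and -0.06 under PBS with 5 above 0. That of the transduction genes was 0.12 after flagellin with 14 of 15 above 0, and -0.03 under PBS with 6. That of the 11 immature neuron markers was 0.28 after flagellin with all 11 above 0, and 0.13 under PBS with 10. The part of the neurons' share of the tissue in the receptor differences was not tested.

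Markers of other tissues and cell types also differed between arrays. The median of 10 skeletal muscle markers was 5.40 and 8.15 in the flagellin and PBS arrays labelled Duox2-/-, and 6.72 and 4.93 in the flagellin and PBS arrays of wild type. All 10 were higher in the PBS array labelled Duox2-/- than in wild-type PBS, and all 10 were higher with flagellin in wild type. The median of 7 tooth and bone markers was 6.17 and 7.85 in the arrays labelled Duox2-/-, and 5.40 and 5.77 in wild type. The median of 9 basal and squamous markers was 5.59 and 6.16 in the flagellin and PBS arrays labelled Duox2-/-, and 7.89 and 6.83 in wild type, and 7 of the 9 were at least 2-fold lower in the flagellin array labelled Duox2-/- than in wild-type flagellin. The median of 13 neutrophil markers was 6.51 and 6.20 in the arrays labelled Duox2-/-, and 5.57 in wild-type PBS. Their median flagellin difference was 1.15 in wild type, where 9 of the 13 were at least 2-fold higher. The wild-type PBS array, lowest for 59 members, was also the lowest in the medians of muscle and neutrophil markers. The part of these tissues and cells in the receptor differences was not tested.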

How the data were processed

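The values were deposited on the log2 scale by the authors, and per the submitters' processing notes were made by RMA, run in Affymetrix Expression Console 1.1, a method that removes background, normalises between arrays and gives 1 value per probe set. No other normalisation was applied. Every value column belonged to 1 of the 4 arrays. Of 35556 probe sets, 21789 were paired with 1 gene; the one with the highest 4-array mean stood for a gene with several, which left 19938 genes. The sources used here do not name the build of the probe sets. Gene positions, MOR names and promoter windows are from RefSeq (GRCm38.p6). Of the probe sets paired with several genes, 6 held a member and were left out, as were 3 symbols in the range that end in -ps.

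Pairwise comparisons are differences of log2 values with no test. The additive model used limma 3.58.1 under R 4.3.3 (functions lmFit and eBayes, adjusted p at most 0.05). Its prior SD was 0.136 on 7.48 degrees of freedom. It was also run on simulated data with equal noise on all arrays and shifts with flagellin only, which does not check the genotype calls. Genes entered it if their highest value reached the median of all values. The number of arrays limits the precision of every value. Where nothing says that arrays came from separate mice, spread between them may be technical.

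Named members were the 8 with the highest mean, the 5 highest and 5 lowest of those reaching the median in each comparison, those called in the additive fit and those at the edges of the range. The others were chosen after their values were seen. The members, the gene lists and these rules were chosen with earlier results of these data known. Alternatives were 3 other normalisations, the mean of a gene's probe sets, probe sets of several genes, signal filters, a 1.5-fold size and eBayes with a trend. Figures and tables used Python 3.11.15, numpy 2.4.6, pandas 2.3.3 and matplotlib 3.10.9.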

Additional observations from a re-analysis of the deposited data

Results flagged for a closer look

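In 3 members a difference of at least 2-fold in one genotype met one of opposite sign in the other, and the responses differed by at least 2-fold. These differences were not tested, since each group had 1 array. Olfr847 was lower with flagellin in the arrays labelled Duox2-/- and slightly higher in wild type, a difference of responses of -1.63, and by the same values its genotype difference changed sign between treatments (-1.33 with flagellin and 0.31 with PBS). Olfr857 had a difference of responses of -1.40, with -0.24 in the arrays labelled Duox2-/- and 1.16 in wild type. Olfr910 had one of -1.34, with -0.06 in the arrays labelled Duox2-/- and 1.28 in wild type. Olfr847 turns on the flagellin array labelled Duox2-/-, and Olfr857 and Olfr910 on the wild-type PBS array, the lowest of the 4 for each.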

How the results depend on the processing

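Of 143 alternative values of the summaries and counts, 100 kept their direction and size, 38 moved and 5 changed sign. Among those counted as kept, the 15 members at least 2-fold higher by genotype under PBS became 11 under each of the 3 other normalisations. Keeping the 35 members that reached the median of all values gave medians of -0.000459 for flagellin in wild type, 0.012044 for genotype after flagellin and -0.001756 for genotype under PBS. With it the 2-fold counts were 0 higher for flagellin in either genotype, 1 higher for genotype after flagellin, 4 higher and 0 lower under PBS, and 1 lower for the difference of responses. Keeping the 6 members at the 75th percentile gave medians of -0.13 for flagellin in the arrays labelled Duox2-/-, -0.26 for genotype after flagellin and -0.16 under PBS. Its counts were 0 higher and 0 lower for flagellin in the arrays labelled Duox2-/-, 0 higher in wild type, 0 higher and 1 lower for genotype after flagellin, 1 higher and 0 lower under PBS, and 0 lower for the difference of responses. A 1.5-fold size gave 4 lower for flagellin in the arrays labelled Duox2-/-, 18 higher and 2 lower in wild type, 16 higher and 5 lower for genotype after flagellin, 34 higher and 4 lower under PBS, and 3 higher and 19 lower for the difference of responses. Quantile normalisation gave a PBS genotype median of 0.23 and 1 member 2-fold higher after flagellin; cyclic loess gave 0.22, 1 member higher, and a flagellin genotype median of -0.004405. Centring each array on its median gave 2 members 2-fold lower under PBS. In the limma fit the members that rose with genotype numbered 3 after centring, 0 after cyclic loess, 28 over all genes and 1 at the 75th percentile; those that fell numbered 0 after cyclic loess, 3 over all genes and 3 with a trend; and 1 rose with flagellin over all genes. The causes were not tested, beyond the smaller or larger sets of members these filters leave. Of the differences past 2-fold, 9 were recomputed under 4 alternatives, all in members that reached the median of all values. All 36 values kept their direction and 33 stayed past 2-fold. The differences of single dimmer genes, such as Olfr948, Olfr924 and Olfr901, were not followed in this way.

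Each group has 1 array, so no array can be left out. No paired analysis was possible because the labels give no replicate numbers and each group has 1 array. Signal over background limits most of these results: 71 of 106 members reach the median of all values on no array.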
